A study of Anopheles gambiae with 36 samples.

Results

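The comparison described here is that of male with female mosquito ears at lights on. Its members were the libraries whose labels give a male or a female Johnston's organ and zeitgeber time 0, which are 3 libraries of males and 3 of females, 6 of the 36 libraries of the series. Zeitgeber time (ZT) counts the hours from lights on in a day of 12 h of light and 12 h of darkness, so at ZT0 the light was just beginning to be ramped up. Each library was made from the second antennal segments of 35 Anopheles gambiae of the Kisumu strain, the malaria mosquito, aged 3 to 7 days. Males and females were separated as pupae and kept in different cages, entrained for 3 days and frozen after CO2 sedation on day 4. No group carried a mutation or a transgene or was given a compound. Pools, and not single animals, were the replicates. Sex and cage cannot be told apart.

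The Johnston's organ (JO) fills the second antennal segment and is the hearing organ of mosquitoes. It holds stretch-sensitive neurons that are moved by the vibrating flagellum of the antenna. The male organ is the larger one and is used to hear the wing beats of flying females. In mosquitoes the brain also sends axons out to the ear, and what the ear can read of their chemical signals depends on the receptors it makes. The named transcripts below are therefore mainly receptors, in the categories of receptor activity to which the study assigned 172 transcripts of 151 genes. The study chose these lists on its own libraries, the present ones among them. No direction in them is independent evidence.

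Total estimated counts per library were 11074586 to 17228336 in males and 9341518 to 14211935 in females. Values are given as normalised counts, which are estimated counts per transcript brought to a common depth of 13784831 by the trimmed mean of M-values (TMM). They are not corrected for transcript length, so levels are compared between the sexes and not between genes. Markers of the JO itself could not be checked, because the sources used here do not pair such genes with the identifiers of the table. The markers that could be looked up are those commonly used for the eye and the flagellum, and the source of their reads was not tested. The 11 opsin transcripts, whose proteins are the light receptors of the eye, took 8.47%, 10.3% and 2.43% of all counts in male libraries, against 27.7%, 26.9% and 39.6% in female libraries. Summed over the opsins the normalised count was 7.82-fold higher in females (exact two-sided permutation test, p = 0.10, the smallest p that 3 libraries against 3 allow). Orco, the co-receptor that odorant receptors of the flagellum need, had 18.5, 6.19 and 1.32 normalised counts in males, against 40.3, 42.0 and 110 in females. Opsins were thus lowest in male replicate 3 and highest in female replicate 3, and the TMM factor of female replicate 3, 0.625, was far from those of the other female libraries, 0.916 and 0.941.

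**Figure D1:**
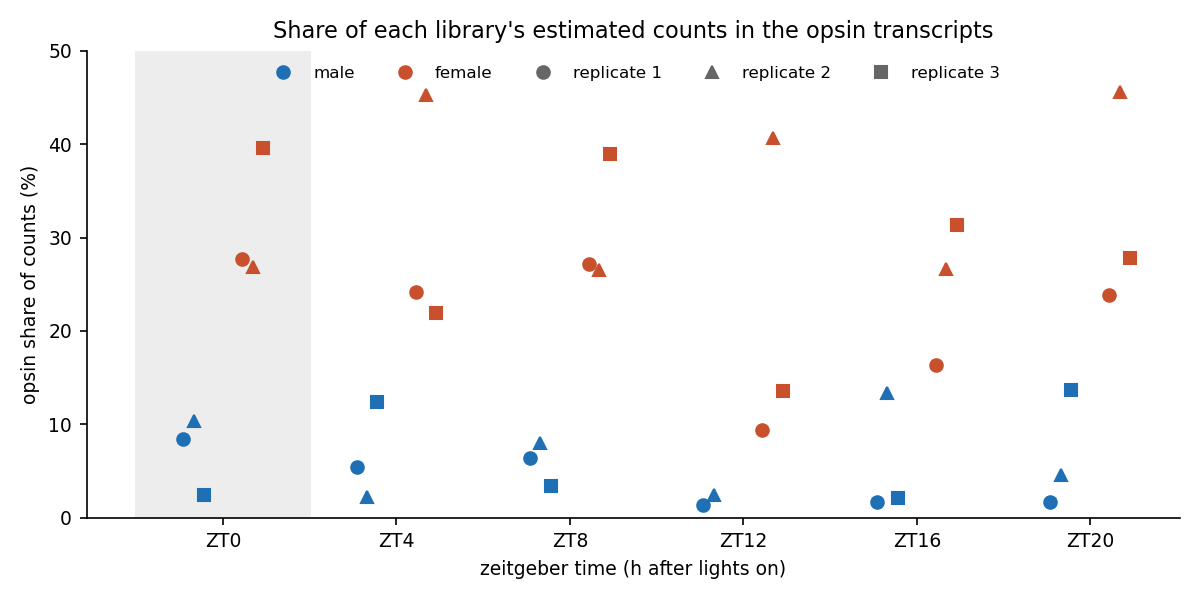
Share of each library's estimated counts (%, linear axis) that fell on the 11 opsin transcripts, by zeitgeber time, in male (blue, left) and female (red, right) libraries, with the marker shape giving the replicate number and ZT0 shaded. At ZT0 the male libraries ran from 2.43% to 10.3% and the female libraries from 26.9% to 39.6%, with no overlap. The sexes did not overlap at any other time either.

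Of 11714 transcripts tested, 3464 or 29.6% differed between the sexes at an adjusted p under 0.05 (edgeR's quasi-likelihood F-test with Benjamini-Hochberg adjustment). Of these, 1610 were higher in males and 1854 were higher in females, 13.7% and 15.8% of the transcripts tested. Among the calls higher in males the median size was 2.27-fold, and among the calls higher in females it was 3.60-fold. No library of one sex overlapped with any of the other for 2923 transcripts with males above, which is 25%, and for 2863 with females above, which is 24.4%. Leaving out a male library lowered both counts by more than leaving out a female one. They were 971 and 953 without male replicate 1, 994 and 1174 without male replicate 2, and 849 and 942 without male replicate 3. With total counts as the only scaling, 3096 transcripts were higher in males and 884 in females, and the median of all transcripts moved by 0.56 on the log2 scale toward males.

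Among the 170 listed receptor transcripts that passed the filter on low counts, 16 were higher in males and 47 were higher in females, while 107 were not called. This is 9.41% higher in males and 27.6% higher in females, beside the 13.7% and 15.8% over all transcripts. The median log2 fold change, male over female, was -0.99 over the listed transcripts and -0.01 over all transcripts tested. Without the PhotoR category, in which the opsins stand, 13 were higher in males and 39 in females of 153. Scaling by total counts alone gave 23 higher in females. It was 20, 28 and 21 without male replicate 1, 2 or 3, and 25 and 31 without female replicate 1 or 3. The other 2 listed transcripts, the isoforms RB and RE of AGAP005599, did not pass the filter and were not tested. With each of the 6 libraries left out in turn, 11 of the 16 calls higher in males and 13 of the 47 calls higher in females held in every fit, and the rest were lost in at least 1, with the same sign.

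The libraries within each sex differed in a way that touches most of the receptors higher in females. Male replicate 3 was the lowest male library for 40 of these 47 transcripts, or 85.1%, against 43.3% of all transcripts higher in females. Female replicate 1 was the highest female library for 26 of the 47, or 55.3%, against 28.6% of all transcripts higher in females. The order of the opsins, with male replicate 3 lowest and female replicate 3 highest, was found for 15 of the 47, or 31.9%, and outside the PhotoR category for 17.9%. Over all transcripts higher in females it was found for 18.8%. In a model over all time points that holds the opsin level of each library as a covariate, 11 of the 16 higher in males and 9 of the 47 higher in females kept their call. Without the covariate the same model kept 14 of the 16 and 34 of the 47, so part of the loss came with the change of model. The opsin shares of the sexes did not overlap at ZT0 or at any other time. Opsin content and sex therefore cannot be told apart at any single time, which also limits what the covariate can show.

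**Figure D2:**
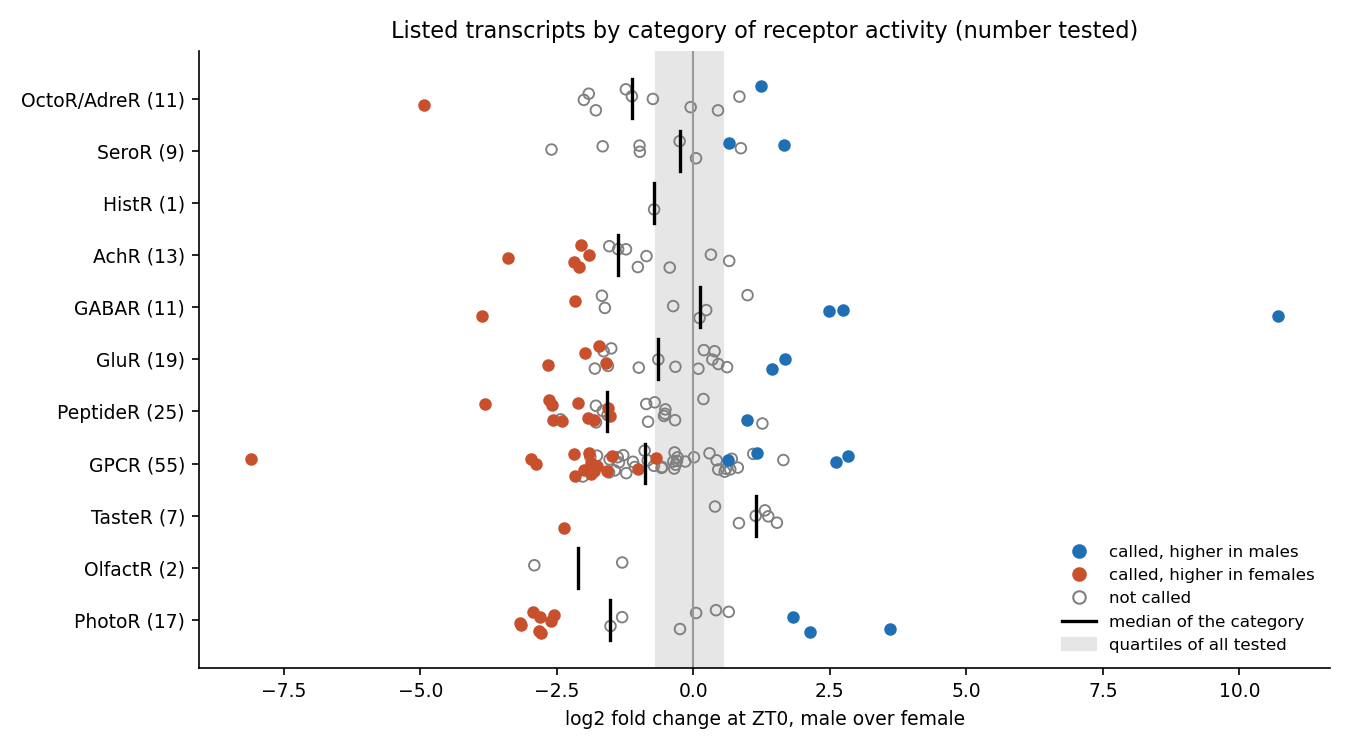
Log2 fold change, male over female, at ZT0 for the 170 tested receptor transcripts by the study's category (number tested in brackets). Filled points passed the test (blue higher in males, red higher in females), open points did not, black lines are category medians, and the grey band runs from the lower to the upper quartile of all 11714 transcripts. Most categories lie to the left of the band's centre, the acetylcholine and peptide receptors with medians of -1.38 and -1.57. Farthest to the right are AGAP005599-RG at 10.7 and AGAP001487-RA of the PhotoR category at 3.61.

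Octopamine is the insect counterpart of noradrenaline and acts through G protein-coupled receptors. The octopamine and adrenergic receptor category had 11 transcripts, of which 1 was higher in males and 1 in females. Each is 9.09%, beside 13.7% and 15.8% over all transcripts tested. The transcript higher in males was Octβ2R (AGAP002886-RA), a beta-adrenergic-like octopamine receptor, which had 2713, 2214 and 2427 normalised counts in male ears, against 1149, 1155 and 801 in female ears. The male libraries were all well above the female ones, and males over females gave a log2 fold change of 1.24 (± 0.20 standard error, SE, edgeR adjusted p = 0.00596). The call of Octβ2R held under all 17 alternative settings.

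AGAP000667-RA, which the study lists in this category without a name, ran the other way. It had 6.16, 14.7 and 1.98 normalised counts in males, against 415, 92.5 and 199 in females (log2 fold change -4.93 ± 0.85 SE, edgeR adjusted p = 0.00705). The opsin covariate left it at -3.28 and ended this call (edgeR adjusted p = 0.0669). No other transcript of this category was called by edgeR in the test per transcript at ZT0. DESeq2's Wald test called AGAP000667-RA, Octα2R and GPRTYR (AGAP002519-RA, DESeq2 adjusted p = 0.0174) higher in females. On counts summed per gene edgeR also called GPRTYR (log2 fold change -1.76 ± 0.53 SE, adjusted p = 0.0332) and GPRDOP3 (AGAP004453, -2.04 ± 0.68 SE, adjusted p = 0.0485) higher in females. GPRDOP3 is a dopamine receptor by its symbol. Octα2R (AGAP000606-RA), an alpha-adrenergic-like receptor, had 530, 511 and 220 in males, against 1460, 976 and 531 in females. The lowest female library was almost level with the highest male one, and the log2 fold change was -1.24 (± 0.45 SE, edgeR adjusted p = 0.0787). DESeq2 gave Octα2R an adjusted p of 0.0274, and it also passed in edgeR's model over all time points. For the 3 isoforms of Octβ3R (AGAP002888) the log2 fold changes ran from -1.92 to 0.84, with adjusted p-values of 0.398 or more in edgeR.

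Oamb (AGAP000045), the octopamine receptor related to alpha-1 adrenergic receptors, is annotated with 2 isoforms. Isoform RB had 131, 104 and 152 normalised counts in males, against 155, 72.5 and 55.9 in females. Isoform RA had 97.5, 101 and 129 in males, against 152, 290 and 104 in females. The sexes overlapped for both isoforms, and neither was called, with log2 fold changes of 0.45 (± 0.43 SE, edgeR adjusted p = 0.456) and -0.74 (± 0.40 SE, edgeR adjusted p = 0.204). RB took 57.4%, 50.8% and 54.0% of the gene's counts in males, and 50.5%, 20% and 35% in females. Summed over its isoforms the gene had a log2 fold change of -0.19 (± 0.30 SE, edgeR adjusted p = 0.638).

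Serotonin receptors are G protein-coupled in insects. Of the 9 transcripts in this category, 2 or 22.2% were higher in males and 0 in females, beside 13.7% and 15.8% over all transcripts tested. An unadjusted p under 0.05 was reached by 1 transcript higher in females, and DESeq2's Wald test called 2. The category also holds 2 isoforms of GPRDOP1 (AGAP004613), a dopamine receptor by its symbol. On counts summed per gene edgeR called GPRDOP1 higher in females (log2 fold change -1.78 ± 0.28 SE, adjusted p = 0.00276). Its isoform RA took 98.2%, 0% and 90.3% of the gene's counts in males, so the division among isoforms was unsteady. The name 5-HT7 is given to a pair of genes. AGAP004222-RA had 1348, 1169 and 1026 normalised counts in males, against 737, 854 and 663 in females (log2 fold change 0.65 ± 0.18 SE, edgeR adjusted p = 0.0323). AGAP004223-RA had 596, 475 and 583 in males, against 503, 456 and 640 in females, so the sexes overlapped (log2 fold change 0.05 ± 0.19 SE, edgeR adjusted p = 0.869). The difference between these genes in their sex effect was not tested.

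5-HT1B (AGAP011481-RA) was also higher in males, with 421, 344 and 239 normalised counts, against 168, 108 and 40.4 in females (log2 fold change 1.66 ± 0.49 SE, edgeR adjusted p = 0.0413). In both sexes replicate 3 was the lowest library. The call of AGAP004222-RA was kept only without female replicate 2, and that of 5-HT1B only without female replicate 1 or 3. Both calls were lost with the opsin covariate. 5-HT2A (AGAP002232-RA) had 60.5, 36.4 and 13.2 in males, against 152, 92.5 and 102 in females, without overlap (log2 fold change -1.66 ± 0.57 SE, edgeR adjusted p = 0.0680). DESeq2's Wald test and limma-trend called it higher in females (adjusted p = 0.0268 and 0.0436), as did edgeR on counts summed per gene (adjusted p = 0.0453).

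The histamine receptor AGAP002566-RA had 529, 516 and 438 normalised counts in males, against 752, 1098 and 587 in females, without overlap. It missed the threshold in edgeR at ZT0 alone (log2 fold change -0.72 ± 0.25 SE, adjusted p = 0.0690). DESeq2's Wald test called it higher in females (adjusted p = 0.0417), and so did edgeR's model over all time points (adjusted p = 0.0386). DopEcR (AGAP005681-RA), which in Drosophila responds to dopamine and to ecdysone, had 10063, 5695 and 5607 in males, against 5559, 5695 and 2370 in females. Here the male and female libraries overlapped (log2 fold change 0.65 ± 0.40 SE, edgeR adjusted p = 0.255).

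**Figure D3:**
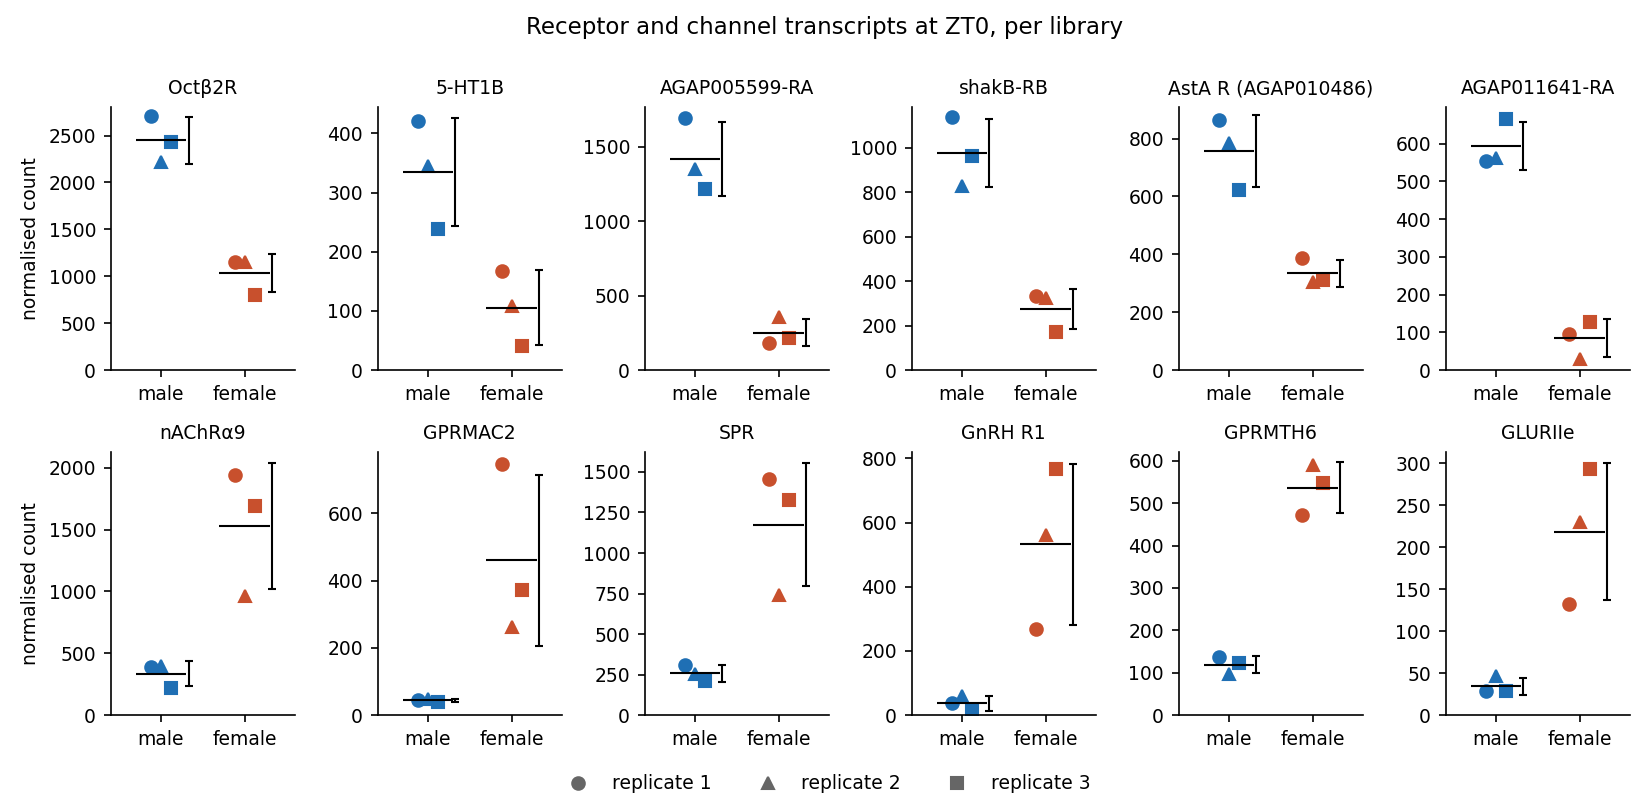
Normalised counts per library at ZT0 (linear axes from 0) for 6 transcripts higher in males (top row) and 6 higher in females (bottom row), with males in blue on the left and females in red on the right. The marker gives the replicate number, the horizontal line the mean and the bar the standard deviation (n = 3). In each panel the libraries of the sexes are apart, and the female libraries of nAChRα9, GPRMAC2, SPR and GnRH R1 are spread widely.

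Acetylcholine is the main excitatory transmitter of insect sensory neurons. Its nicotinic receptors are cation channels built of several subunits, and its muscarinic receptors are G protein-coupled. In this category 0 of 13 transcripts were higher in males, by edgeR, by DESeq2's Wald test and at an unadjusted p under 0.05 alike. By edgeR 5 or 38.5% were higher in females. Over all transcripts tested 13.7% were higher in males and 15.8% in females. The subunit nAChRα9 (AGAP009493-RA) had 388, 400 and 223 normalised counts in males, against 1938, 960 and 1691 in females (log2 fold change -2.18 ± 0.34 SE, edgeR adjusted p = 0.00508). GPRMAC2 (AGAP004675-RA), a muscarinic receptor by its symbol, had 45.1, 48.0 and 38.2 in males, against 747, 262 and 371 in females (log2 fold change -3.39 ± 0.43 SE, edgeR adjusted p = 0.00259). Male libraries were close to each other for this transcript and female libraries were not. Both calls held without any single library and were lost with the opsin covariate.

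The other calls among the nicotinic subunits depended on single libraries. nAChRα2 (AGAP002972-RA) had 289, 320 and 92.3 normalised counts in males, against 1472, 538 and 898 in females (log2 fold change -2.05 ± 0.54 SE, edgeR adjusted p = 0.0284). Male replicate 3 was far below the other males and female replicate 1 far above the other females. The same libraries stood out for nAChRα (AGAP002971-RA) and nAChRα4 (AGAP000138-RA), with log2 fold changes of -1.90 and -2.09. Each of these 3 calls was kept only without female replicate 2. The call of nAChRα4 was that of isoform RA, with 22.4%, 24.3% and 18.8% of the gene's counts in males, against 31.2%, 29.6% and 50% in females. Isoform RB overlapped between the sexes and was not called (log2 fold change -1.23, edgeR adjusted p = 0.153). Nor was the gene as a whole (log2 fold change -1.45 ± 0.50 SE, edgeR adjusted p = 0.0550). Of the subunits that were not called, nAChRα3 and nAChRα6 had log2 fold changes above 0, at 0.32 and 0.66, and nAChRβ1 (AGAP000966-RA) was at -1.02 (± 0.39 SE, edgeR adjusted p = 0.0908) although its libraries did not overlap. DESeq2's Wald test called nAChRβ1 higher in females (adjusted p = 0.0378).

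GABA is the main inhibitory transmitter of insects and acts on chloride channels and on G protein-coupled GABA-B receptors. In the GABA receptor category 3 of 11 tested transcripts were higher in males and 2 in females. This is 27.3% and 18.2%, beside 13.7% and 15.8% over all transcripts tested. All 3 higher in males were isoforms of AGAP005599, a gene the study lists here without a name. Isoform RA had 1694, 1349 and 1215 normalised counts in males, against 184, 356 and 214 in females (log2 fold change 2.49 ± 0.29 SE, edgeR adjusted p = 0.00207). Isoform RK had 1238, 871 and 577 in males, against 202, 137 and 65.2 in females (log2 fold change 2.73 ± 0.46 SE, edgeR adjusted p = 0.00639). Isoform RG had 179, 152 and 299 in males and 0 in every female library. Set against 3 counts in the female libraries together, the floor used for transcripts without counts, RG was at least 161-fold higher in males, a bound that covers counting error only.

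Taken over the whole gene, AGAP005599 had a log2 fold change of 2.77 (± 0.24 SE, edgeR adjusted p = 3.04e-04), a value that does not depend on how reads were divided among its 7 isoforms. RG made up 5.74%, 6.0% and 11.9% of the gene's counts in males and 0% in females. Reads shared by isoforms were divided among them by the quantification, so the shares are less certain than the sum.

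Toward females, AGAP000039-RA, listed among GABA receptors without a name, had 41.0, 82.8 and 5.93 normalised counts in males, against 604, 807 and 489 in females (log2 fold change -3.88 ± 0.78 SE, edgeR adjusted p = 0.0115). Its call was lost without male replicate 1. A GABA-A receptor, AGAP000038-RA, had 206, 225 and 81.7 in males, against 1268, 440 and 592 in females (log2 fold change -2.17 ± 0.52 SE, edgeR adjusted p = 0.0209). Leaving out male replicate 1 or male replicate 3 ended that call, as did the model over all time points with or without the opsin covariate. Rdl (AGAP006028), the GABA-gated chloride channel at which several insecticides act, was not called for either isoform, at 0.11 for RB and 0.99 for RC (edgeR adjusted p = 0.822 and 0.174). The GABA-B receptors were not called by edgeR. GABA-B-R3 (AGAP009514-RA) had 81.0, 125 and 26.4 in males, against 378, 102 and 235 in females (log2 fold change -1.62, edgeR adjusted p = 0.103), and DESeq2's Wald test called it higher in females (adjusted p = 0.0458). In all DESeq2 called 4 transcripts of the category higher in females. GABA-B-R1 (AGAP010281-RA) had 941, 926 and 930 in males, which is a narrow range, and 1452, 835 and 1326 in females (log2 fold change -0.37 ± 0.22 SE, edgeR adjusted p = 0.251).

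Glutamate acts on ionotropic receptors of the kainate, AMPA and NMDA types, on glutamate-gated chloride channels and on metabotropic receptors, and ionotropic receptors named Ir are related chemosensory or thermosensory channels. In the glutamate receptor category 2 of 19 transcripts were higher in males and 4 in females, which is 10.5% and 21.1%, beside 13.7% and 15.8% over all transcripts tested. GPRBOS (AGAP004272-RA), whose symbol does not name a glutamate receptor, was placed in this category by the study. It had 2956, 2906 and 3316 normalised counts in males, against 854, 915 and 1598 in females (log2 fold change 1.45 ± 0.27 SE, edgeR adjusted p = 0.00936). A metabotropic receptor with the symbol GPRMGL5 (AGAP005034-RA) had 1292, 1012 and 1188 in males, against 544, 185 and 371 in females (log2 fold change 1.67 ± 0.37 SE, edgeR adjusted p = 0.0161). The male libraries of both genes lay close together. The call of GPRBOS held under every setting, while that of GPRMGL5 was lost without male replicate 1 and in the model over all time points.

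GLURIIe (AGAP012447-RA), a subunit of the muscle-type ionotropic receptor in Drosophila, was higher in females. It had 28.7, 46.4 and 28.3 normalised counts in males, against 132, 230 and 294 in females (log2 fold change -2.66 ± 0.40 SE, edgeR adjusted p = 0.00456), and its call held under every setting. NMDAR2 (AGAP012429-RA), a subunit of the NMDA receptor, had 242, 308 and 215 in males, against 1080, 476 and 773 in females (log2 fold change -1.60 ± 0.32 SE, edgeR adjusted p = 0.0112). That call was lost without male replicate 1 or 3. GluRIIB and the RC isoform of the glutamate-gated chloride channel GluClα were at -1.99 and -1.73, with calls kept only without female replicate 2 or 3. GluRIIA (AGAP000803-RA), whose partner subunit is GluRIIB at the fly muscle, had 130, 217 and 252 in males, against 131, 188 and 207 in females, and was not called (log2 fold change 0.19 ± 0.32 SE, edgeR adjusted p = 0.676).

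Neuropeptides and peptide hormones act on a large set of G protein-coupled receptors and on a few receptor guanylyl cyclases. In the peptide receptor category 1 of 25 transcripts was higher in males and 10 were higher in females. This is 4% and 40%, beside 13.7% and 15.8% over all transcripts tested. The single one higher in males was NPRA (AGAP003283-RA), named for natriuretic peptide receptors, with 807, 634 and 759 normalised counts, against 232, 531 and 348 in females (log2 fold change 0.98 ± 0.30 SE, edgeR adjusted p = 0.0473). Its call was kept only without female replicate 2.

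GnRH R1 (AGAP002156-RA) belongs to the receptor family that in insects binds adipokinetic hormone and related peptides. It had 39.0, 60.3 and 13.8 normalised counts in males, against 268, 562 and 766 in females (log2 fold change -3.82 ± 0.61 SE, edgeR adjusted p = 0.00557). The same family's GnRH R2 (AGAP001558-RA) had 12.3, 30.2 and 6.59 in males, against 116, 64.1 and 80.8 in females (log2 fold change -2.40 ± 0.64 SE, edgeR adjusted p = 0.0301). Only the call of GnRH R1 held under every setting, and that of GnRH R2 was lost without male replicate 1 or 3 and without female replicate 1 or 3. In both genes male replicate 3 was the lowest library.

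CAPA peptides and leucokinin regulate the water and ion balance of insects. Of their receptors 3 were called, each higher in females. CAPA R2 (AGAP001961-RA) had 37.96, 49.5 and 11.9 normalised counts in males, against 240, 195 and 158 in females (log2 fold change -2.58 ± 0.53 SE, edgeR adjusted p = 0.0124). CAPA R1 (AGAP001962-RA) was at -1.94 (± 0.57 SE, edgeR adjusted p = 0.0396) and the leucokinin receptor Lkr (AGAP010851-RA) at -2.11 (± 0.50 SE, edgeR adjusted p = 0.0196). The call of CAPA R2 held under every setting. That of CAPA R1 was kept only without male replicate 3, and that of Lkr was lost without male replicate 1, 2 or 3. The further receptor listed as CAPA R (AGAP003244-RA) was not called, at -0.86 (± 0.41 SE, edgeR adjusted p = 0.155).

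Receptors of the neuropeptide F and related family were also on the female side. Of those that follow, AGAP004122-RA is counted in the category of other G protein-coupled receptors and not in the peptide receptor category. NPF R3 is the name of a pair of genes, of which AGAP004122-RA had 281, 192 and 172 normalised counts in males, against 878, 908 and 474 in females (log2 fold change -1.81 ± 0.32 SE, edgeR adjusted p = 0.00747). AGAP012378-RA had 88.2, 110 and 68.5 in males, against 358, 214 and 219 in females (log2 fold change -1.57 ± 0.31 SE, edgeR adjusted p = 0.0115). Both calls held without any single library. The call of AGAP004122-RA also held under every other setting. That of AGAP012378-RA was lost once the opsin covariate was added, and also when libraries were scaled by total counts alone. GPRNPY2 (AGAP004123-RA) was at -2.58 and lost its call without male replicate 1 or 3, and NPF R1 (AGAP000351-RB) was not called, at -0.34 (± 0.59 SE, edgeR adjusted p = 0.693). LHCGR (AGAP004035-RA), named for receptors of glycoprotein hormones, had 19.5, 18.6 and 17.1 in males, against 161, 30.5 and 155 in females (log2 fold change -2.64 ± 0.65 SE, edgeR adjusted p = 0.0234). The second female library was far below the others, and the call was kept only without it.

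The study's broad category of other G protein-coupled receptors (GPCR) had 55 transcripts, of which 4 were higher in males and 16 in females. This is 7.27% and 29.1%, beside 13.7% and 15.8% over all transcripts tested. SPR (AGAP029618-RA) is the sex peptide receptor, which in Drosophila females switches behaviour after mating and also binds myoinhibitory peptides. It had 311, 252 and 210 normalised counts in males, against 1457, 743 and 1328 in females (log2 fold change -2.19 ± 0.30 SE, edgeR adjusted p = 0.00332). GPRMTH6 (AGAP004026-RA), of the methuselah-like receptors, had 137, 96.7 and 123 in males, against 473, 591 and 547 in females (log2 fold change -2.17 ± 0.21 SE, edgeR adjusted p = 0.00137). Its libraries were tight in both sexes, and the calls of SPR and GPRMTH6 held under every setting.

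Further calls of this category toward females were those of CL R1, SST R and GPRCAL2, which carry the names of calcitonin-like and somatostatin receptors. CL R1 (AGAP009770-RA) and SST R (AGAP012268-RA) had log2 fold changes of -1.91 and -1.49. The call of CL R1 was lost without male replicate 2 or 3 and without female replicate 1, and that of SST R without male replicate 3. GPRCAL2 (AGAP001175-RA) had 5.13, 17.02 and 13.8 normalised counts in males, against 134, 54.6 and 99.4 in females (log2 fold change -2.97 ± 0.60 SE, edgeR adjusted p = 0.0122). AGAP008237-RA, without a name, had 17.4, 18.6 and 13.8 in males, against 100, 117 and 151 in females, in the order of the opsins (log2 fold change -2.88 ± 0.37 SE, edgeR adjusted p = 0.00283). The calls of GPRCAL2 and AGAP008237-RA held without any single library and were lost with the opsin covariate.

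For AGAP001499-RB, an isoform listed without a name, the males had 0 in every library and the females 37.1, 45.2 and 20.2. That is at least 44.99-fold higher in females set against 3 counts in the male libraries together. The call held without any single library. It was lost in the model over all time points with or without the opsin covariate. The isoform is a minor one, with 15%, 14.7% and 5.39% of the gene's counts in females, and the gene as a whole was not called (log2 fold change -0.52 ± 0.22 SE, edgeR adjusted p = 0.0964).

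Among the 4 higher in males, AstA R (AGAP010486-RA), a receptor of allatostatin A, had 865, 784 and 621 normalised counts, against 389, 305 and 312 in females (log2 fold change 1.18 ± 0.20 SE, edgeR adjusted p = 0.00656). A second gene of that name, AGAP001773, which is counted in the peptide receptor category, ran the other way. Its isoform RC had 21.5, 30.9 and 24.4 in males, against 96.8, 62.0 and 65.2 in females (log2 fold change -1.54 ± 0.42 SE, edgeR adjusted p = 0.0311), and the whole gene was at -1.68 (± 0.43 SE, edgeR adjusted p = 0.0181). AGAP011641-RA, listed without a name, had 554, 562 and 666 in males, against 96.8, 28.4 and 127 in females (log2 fold change 2.84 ± 0.49 SE, edgeR adjusted p = 0.00734). The calls of AGAP010486-RA and AGAP011641-RA held under every setting, while that of AGAP001773-RC was kept only without female replicate 2. AGAP002881-RB, also without a name, was at 2.62 (± 0.44 SE, edgeR adjusted p = 0.00639) and lost its call with the opsin covariate only. GPRSTN was at 0.64 with a call kept only without female replicate 2.

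The PhotoR category held the 11 opsin transcripts and 6 others. All 8 of its calls toward females, 47.1% of the category beside 15.8% over all transcripts tested, were opsins. GPROP1 had 503580, 598890 and 135720 normalised counts in males, against 2126500, 2107700 and 4378200 in females (log2 fold change -2.80 ± 0.66 SE, edgeR adjusted p = 0.0204). Its call was lost without male replicate 1 or 2, with limma-trend, with the replicate block and with the opsin covariate. GPROP3, GPROP4, GPROP6, Rh5, GPROP7 and the isoforms of Rh3 had log2 fold changes between -3.17 and -2.55. Without male replicate 1 all 8 opsin calls were lost, and that of Rh3-RB was kept only without male replicate 3. Several of the GPROP genes are close copies of each other, so the division of reads among them is uncertain and the opsin sum is the firmer value. In Drosophila some opsins are also made in the JO, and the source of the opsin reads in these pools was not tested. GPROP5 and both isoforms of Rh7 were not called, at -0.24, -1.30 and 0.05.

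The 3 transcripts of this category that were higher in males, 17.6% beside 13.7% over all transcripts tested, are not opsins. The gap junction protein shakB (AGAP001487), an innexin that couples neurons electrically in Drosophila, had 2 isoforms called. RA had 177, 160 and 201 normalised counts in males, against 19.4, 17.9 and 6.21 in females (log2 fold change 3.61 ± 0.46 SE, edgeR adjusted p = 0.00261). RB had 1137, 830 and 964 in males, against 332, 324 and 169 in females (log2 fold change 1.83 ± 0.29 SE, edgeR adjusted p = 0.00528). RA made up 13.5%, 16.2% and 17.3% of the counts of shakB in males, against 5.50%, 5.23% and 3.54% in females, with no overlap. AGAP005994-RA, without a name, had 367, 258 and 209 in males, against 59.7, 94.6 and 32.6 in females (log2 fold change 2.14 ± 0.43 SE, edgeR adjusted p = 0.0115). All 3 calls held under every setting, the opsin covariate included. The light-sensing clock protein CRY1 (AGAP001958-RA) was at 0.42 (± 0.17 SE, edgeR adjusted p = 0.105) and passed in the model over all time points (edgeR adjusted p = 0.0267).

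Taste and odorant receptors are proteins of chemosensory neurons. The gustatory transcripts had at most 57.2 normalised counts in any library. Of 7 gustatory transcripts 0 were higher in males by edgeR, by DESeq2 and at an unadjusted p under 0.05. By edgeR 1 or 14.3% was higher in females, beside 15.8% over all transcripts tested. That one, AGAP007757-RA, had 1.03, 6.19 and 4.61 normalised counts in males, against 25.8, 21.0 and 17.1 in females, and its call was lost without any one of the 6 libraries. For 5 of the others the lowest male library exceeded the highest female one, a pattern found for 25% of all transcripts tested. Gr26 (AGAP006717-RA), for example, had 22.6, 13.2 and 15.8 in males, against 6.45, 6.30 and 7.77 in females (log2 fold change 1.31 ± 0.57 SE, edgeR adjusted p = 0.127). Orco (AGAP002560-RA) was at -2.91 and missed the threshold in edgeR (adjusted p = 0.0547), but was called higher in females by DESeq2's Wald test (adjusted p = 0.00988), by limma-trend (adjusted p = 0.0301) and by edgeR on counts summed per gene (adjusted p = 0.0330). With the opsin covariate Orco was at -0.19 (edgeR adjusted p = 0.958). Or61 was not called by any of these tools, at -1.30 (edgeR adjusted p = 0.488).

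Outside the receptor lists, the sources used here give no name for the transcripts with the largest differences. AGAP029531-RA had 115, 86.6 and 433 normalised counts in males and 0 in every female library, at least 172-fold higher in males. AGAP005943-RA had 331, 114 and 48.8 in males and likewise 0 in all females, at least 106-fold higher in males. Toward females, AGAP007453-RA had 0 in all males and 841, 847 and 2047 in females, at least 1506-fold higher in females. Its numbered neighbour AGAP007454-RA had 0, 1.55 and 0 in males, against 741, 990 and 2533 in females (edgeR adjusted p = 8.10e-04).

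The remaining libraries of the series, 14 of males and 15 of females at ZT4 to ZT20, gave the same comparison at 5 other times. No library was in common. The opsin shares of those libraries had medians of 4.01% in males and 26.6% in females, without overlap at any time. Opsin content and sex thus went together there as at ZT0, and agreement between times does not separate them. The sex difference at ZT0 was tested against the mean sex difference of those times. With edgeR 0 of 12898 transcripts passed an adjusted p of 0.05, while 748 had an unadjusted p under 0.05, which is 5.80% of those tested, and DESeq2's Wald test called 57. Of the 16 listed transcripts higher in males at ZT0, 14 or 87.5% had the same sign at each of the 5 other times, beside 93.5% of all transcripts higher in males. All 47 listed transcripts higher in females did so, beside 91.9% of all transcripts higher in females. The exceptions were GPRSTN, at -0.04 at ZT4, and NPRA, at -0.32 at ZT16.

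**Figure D4:**
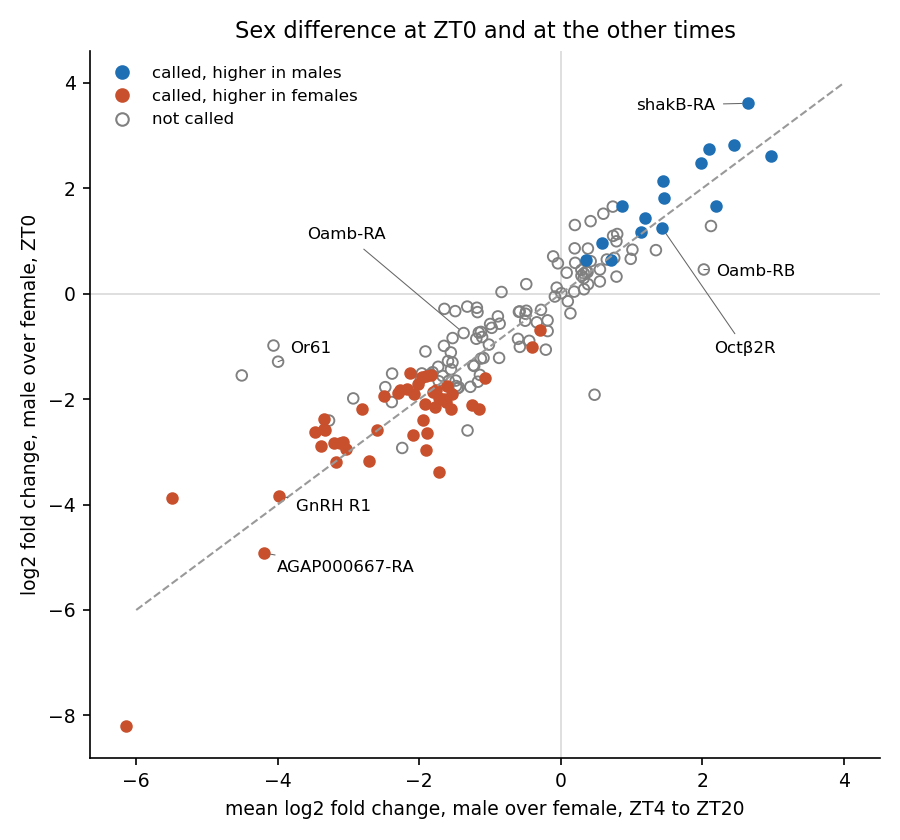
Log2 fold change, male over female, at ZT0 (vertical axis) and its mean over ZT4 to ZT20 (horizontal axis) from the model over 35 libraries, for 169 listed transcripts. Point colours give the call at ZT0 as in the plot by category, the dashed line marks equal values, and 1 transcript, AGAP005599-RG, lies beyond the axes. The points follow the dashed line, with Oamb-RB to the right of it, at 0.46 at ZT0 and 2.02 over the other times.

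The listed transcript with the smallest p in this test was isoform RB of Oamb. In the model over 35 libraries its log2 fold change was 0.46 at ZT0 and 2.02 on average at the other times, a difference of -1.56 (± 0.47 SE, unadjusted p = 0.00290 in edgeR, adjusted p = 0.501). Scaled over 35 libraries, males had 111, 139 and 162 normalised counts at ZT0, and from 178 to 807 with a median of 257 at the other times. All male libraries of ZT0 thus lay below all other male libraries. Females had 61.3, 78.2 and 161 at ZT0, within the range of 23.2 to 194 at the other times. At each other time RB was called higher in males, with log2 fold changes from 1.73 to 2.27. Isoform RA of Oamb had -0.75 at ZT0 and -1.37 on average at the other times, a difference of 0.63 (± 0.48 SE, edgeR adjusted p = 0.944). Over the other times RA was thus higher in females (edgeR adjusted p = 1.96e-06), opposite to RB, and was called at ZT4, ZT8, ZT16 and ZT20. Reads shared by the isoforms were divided by the quantification, and the gene as a whole was not tested at those times. The pattern of RB was picked as the smallest p among the listed transcripts and did not pass the adjustment over all transcripts.

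Octβ2R, by contrast, was called at every time. Its log2 fold change was 1.24 at ZT0 and between 0.70 and 1.81 at the other times, and its difference from their mean was -0.19 (± 0.28 SE, edgeR adjusted p = 0.994). Males had 2372 to 2874 normalised counts at ZT0 and 1474 to 3591 at the other times, and females had 878 to 1246 and 657 to 1317. For Octα2R the value was -1.23 at ZT0 and -1.13 over the other times. Outside the receptor lists, the transcripts with the smallest p in this test were again without a name. AGAP006480-RB was at 3.71 at ZT0 and 0.72 over the other times (difference 2.99, standard error 0.56, edgeR adjusted p = 0.0933). Its males had 949 to 1279 normalised counts at ZT0, against 45.3 to 131 in females, and at the other times males had 33.4 to 1651 and females 30.6 to 677. AGAP009515-RA was at 0.47 at ZT0 and between -0.92 and -0.52 at the other times (difference 1.15, standard error 0.21, edgeR adjusted p = 0.0933). AGAP029221-RA, with the smallest p among those whose difference from the other times was below 0, was at 5.70 at ZT0 and 11.04 over the other times, where its female libraries had at most 4.08 normalised counts, against 17 in 1 female library of ZT0 (edgeR adjusted p = 0.160).

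**Figure D5:**
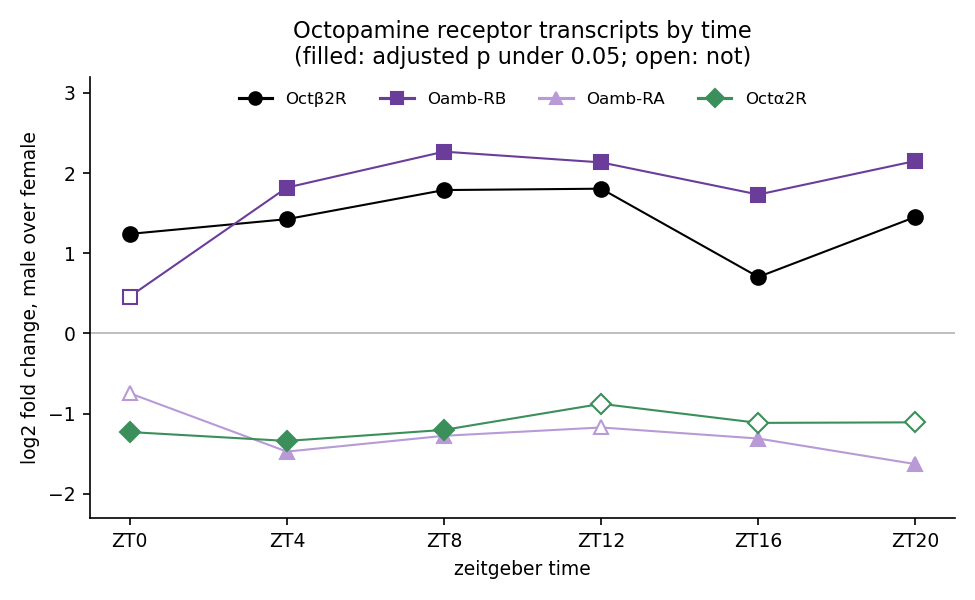
Log2 fold change, male over female, of 4 octopamine receptor transcripts at each zeitgeber time, from the model over 35 libraries, with filled symbols for an adjusted p under 0.05 in edgeR at that time and open symbols otherwise. Octβ2R is above 0 at every time, from 0.70 to 1.81, while Oamb-RB is open and lowest at ZT0, at 0.46, and filled between 1.73 and 2.27 at the other times. Octα2R passes at ZT0 in this model and does not in the fit of the ZT0 libraries alone.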

How the data were processed

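RNA of 6 pools of second antennal segments was read as amplified full-length cDNA. Kallisto was run by the authors against annotated transcripts, and they deposited estimated counts per transcript without normalization, 15863 transcripts of 13832 genes with a column per library (0 columns without a sample). No molecular identifiers were used, so floors and bounds cover counting error only. Reads shared by isoforms or paralogs were divided before deposit.

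Estimated counts were rounded to whole numbers and tested with edgeR 4.0.16 (R 4.3.3, filterByExpr, TMM, quasi-likelihood F-test) on the 6 libraries, with p-values adjusted by Benjamini-Hochberg across every transcript that passed the filter and called at 0.05. Standard errors (SE) were derived as the size of the log2 fold change over the root of F. The difference between ZT0 and the other times was tested in a model of 12 group means over 35 libraries, without male ZT12 replicate 3, which the study discarded. Normalised counts per ZT0 library are scaled to the 6 libraries. The sexes' replicates are pools with no stated pairing, and p-values measure only the spread between them. No 2 libraries of a sex agreed within counting noise (chi-square per degree of freedom at least 47.8). DESeq2 1.42.0, limma 3.58.1 and the other settings named in the closing section were alternatives.

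Receptor names and categories come from the study's lists, and 0 of 13832 gene identifiers were found in the RefSeq gene table, so lists of clock, cuticle, odorant-binding and other genes, markers of JO cells, coordinates and sequences were not used here. The members and lists were chosen with earlier results of these data known. Named were receptors of the study's table of names, listed transcripts called at ZT0 with the largest changes and at least 100 normalised counts in the higher sex, the largest called members of each list, at most 2 unnamed transcripts per direction, and those with the smallest p against the other times.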

Additional observations from a re-analysis of the deposited data

How the results depend on the processing

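At 3 libraries per sex the calls rest on few degrees of freedom, and leaving out 1 library removed many of them. The number called at ZT0 lay between 1791 and 3363 with 1 library left out, against 3464, with 849 to 1628 higher in males and 942 to 1735 higher in females. Of the listed transcripts, 12 to 16 were then higher in males and 20 to 46 higher in females. No listed call changed sign in these fits. Normalization by DESeq2's size factors, both filters on low counts, limma-trend, DESeq2's Wald test, TMM without the opsins and counts summed per gene kept the count of calls within 1.5 times.

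With total counts as the only scaling, 3096 transcripts were higher in males and 884 in females, so that 77.8% of the calls were higher in males, against 46.5% with TMM, and 23 listed transcripts were higher in females. The model over all time points gave 4110 calls at ZT0, 2076 higher in males and 2034 higher in females, and 38 listed transcripts higher in females. The opsin covariate in that model left 1838 calls, 971 higher in males and 867 higher in females, and 11 listed transcripts higher in females. The covariate turned the sign of 4 opsin transcripts, whose counts are part of it, to 0.10 for Rh3-RB, 0.51 for Rh5, 0.004 for GPROP3 and 0.017 for GPROP1, without a call. No listed call turned its sign under the other settings. Under total counts the median of the serotonin receptor category was 0.25, against -0.25 with TMM.

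The test of ZT0 against the other times gave 0 calls in edgeR, and 57 with DESeq2's Wald test, 1 with the opsin covariate, 1 with the replicate block and 0 to 3 with 1 library left out. No listed transcript was called under any of these. No pairing of the sexes by replicate number is stated, and the deviations of same-numbered libraries correlated at 0.11, -0.13 and 0.05. Whether same-numbered libraries shared a collection round or batch was not tested. The replicate block at ZT0 kept 43 of the 63 listed calls. With the replicate block at ZT0, 2938 transcripts were called, 1394 of them higher in males, and 15 and 38 listed ones were higher in males and females. The gustatory receptors, with at most 57.2 normalised counts in any library, had standard errors of 0.48 to 0.73 on the log2 scale, against 0.20 for Octβ2R.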
